A study of Homo sapiens with 4 samples.

Results

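A set of 9 genes of drug metabolism and efflux, UGT1A1, UGT2B7, UGT2B17, CYP3A4, CYP3A5, ABCB1, ABCC2, ABCG2 and NR1I2, were examined for binding of HNF1 in Caco2 cells by ChIP-seq. Caco2 is a human colorectal adenocarcinoma line that is widely used to model the intestinal epithelium and to measure drug uptake. HNF1 (hepatocyte nuclear factor 1) is a homeodomain transcription factor of liver, gut and kidney epithelia. The members were the peaks of both deposited lists whose midpoint lay in 1 of 7 fixed hg19 windows around these genes, with 1 window for each of the UGT1A, UGT2B and CYP3A gene clusters and 1 each for ABCB1, ABCC2, ABCG2 and NR1I2. The windows held 21 of the 5060 peaks of replicate 1 and 20 of the 4955 peaks of replicate 2. Joined where they overlapped, these made 28 of 7108 distinct regions.

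The study comprised 2 immunoprecipitations of untreated Caco2 cells grown in low glucose medium with serum, and 2 inputs without antibody, all from 1 line and 1 condition. Each immunoprecipitation gave 1 peak list, called against the input with its own replicate number. No label tells whether these replicates were separate cultures, and their differences may be technical. In the labels the antibody entry names HNF1, whereas the extraction text of every library names a FOXA2 antibody, and the peak lists alone cannot settle the target. The antibody entry also carries a supplier's catalogue number, and the target sold under it was not verified. If the antibody was one against FOXA2, every peak called HNF1 here would be a FOXA2 peak. FOXA2 is another transcription factor of liver and gut, and the name HNF1 is used here as in the titles. Replicate 1 had 11931439 tags (aligned reads) and replicate 2 had 18469659. No peak list holds expression values, so the cell type could not be checked against marker genes.

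Drugs and bile pigments that enter an enterocyte are handled in steps. Cytochromes P450 of the CYP3A family oxidise them, UDP-glucuronosyltransferases (UGT) attach glucuronic acid to make them soluble, and ATP-driven pumps of the ABC family export the parent drug or its conjugate across the apical membrane. Several of these genes are switched on by NR1I2, the pregnane X receptor, a nuclear receptor that senses drugs and bile acids. HNF1 proteins bind as dimers to a palindrome built from 2 copies of the half-site GTTAAT, and HNF1 is known as an activator of several UGT genes in liver.

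Sequences of the gene starts are given first, because the half-site can be read in them directly. RefSeq promoters (GRCh38.p14, 250 bases before to 50 after each gene start) matched 8 of the 9 genes by symbol, all but UGT2B17. The 6 letters GTTAAT occurred on either strand in a promoter of 2 of these 8 genes, UGT1A1 and CYP3A5. Of 27305 genes with a promoter in the table, 8.27% had it in at least 1 promoter, and 6.88% of the 35116 promoters held it. The full palindrome, the half-site followed by any base and by the half-site's reverse complement, was in 0.00570% of the promoters, namely 2, and 1 of them was that of UGT1A3, a neighbour of UGT1A1 in the UGT1A cluster. The matches are shown for the genes of the UGT1A and CYP3A clusters, on the gene's strand, 5′ to 3′, with the matched letters in capitals. ATTAAC is the half-site read from the opposite strand.
UGT1A1: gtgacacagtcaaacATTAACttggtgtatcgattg
UGT1A3: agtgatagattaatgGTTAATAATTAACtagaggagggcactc
UGT1A6: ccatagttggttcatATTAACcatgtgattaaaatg
CYP3A5: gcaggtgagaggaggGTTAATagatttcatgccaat
CYP3A7: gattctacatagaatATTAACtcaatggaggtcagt
CYP3A43: aatatcgctgttaacATTAACtaaatc

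Counted from the gene start, where -1 is the base before the first transcribed base, the match began at -66 in UGT1A1, at -64 in UGT1A3 and at -75 in UGT1A6. The stretches lie at chr2:233760189-233760224, chr2:233728963-233729005 and chr2:233692800-233692835 of GRCh38.p14, on the plus strand. In these 3 genes of 1 cluster, shown because they hold a match, it therefore stood at nearly the same distance before the start. This does not extend to the whole cluster. Another UGT1A6 promoter in the table, with a different sequence, held no match. UGT1A4, UGT1A8 and UGT1A9 were searched and held no match. UGT1A10 was on the list without a recorded match, but whether the table held a promoter for it was not established. UGT1A5 and UGT1A7 were outside the gene lists and entered only the count over all genes. Their own result is not given. In the CYP3A genes it began at -221 in CYP3A5, at -169 in CYP3A7 and at -12 in CYP3A43. These stretches lie at chr7:99680197-99680232 and chr7:99735345-99735380 on the minus strand and at chr7:99827986-99828012 on the plus strand. The promoters of UGT2B7, CYP3A4, ABCB1, ABCC2, ABCG2 and NR1I2 held no GTTAAT in these windows, which says only that the letters are not there.

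Among 56 other genes of drug handling, 39 had a promoter in the table, and 10 of the 39 (25.6%) held the half-site, against the 8.27% of all genes. Besides UGT1A3, UGT1A6, CYP3A7 and CYP3A43 these were GSTA1 and GSTA2, glutathione transferases, SLCO1B1 and SLCO1B3, hepatic uptake carriers for organic anions, SULT1E1, an oestrogen sulfotransferase, and HNF4A, a nuclear receptor of hepatocytes and enterocytes. Several of the 10 are near copies of each other. The background of all genes was not matched for base composition, and the difference was not tested. The FOXA motif TGTTTAC was in the promoters of none of the 8 matched member genes and of 4 of the 39 other genes, against 3.42% of all promoters. Its variant TGTTTGC occurred in CYP3A5 at 2 places after the gene start and in 3 of the 39 genes, against 3.89%. The HNF4 motif CAAAGTCCA was in no member and in 3 of the 39 (0.384% of all promoters). The CDX motif TTTATGG, for the intestinal homeodomain factors, was in no member and in 0 of the 39 (2.54% of all promoters). For the FOXA, HNF4 and CDX motifs the counts are of genes with a match in any of their promoters, whereas the percentages are of promoters. As a gene can have several promoters, these units are not alike. Both strands were searched, and a match is a description of letters and not a bound site. The promoters are in GRCh38 and the peaks in hg19, so which peak lies at which gene start was not analysed here.

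The 3 enzyme clusters held 23 of the 28 regions (82.1%) and 12 of the 13 regions that both replicates shared (92.3%), and they made up 69.5% of the length of the windows. The 4 single-gene windows held 5 regions and 1 shared one. Per Mb the clusters had 12.3 distinct and 6.4 shared regions and the single-gene windows 6.09 and 1.22, a difference that rests on few regions and was not tested. A region was called shared when peaks of both lists overlapped by at least 1 bp. The windows had 10.4 distinct and 4.82 shared regions per Mb, over 2696 kb. Over the chromosome spans between first and last peak, the whole lists had 2.44 and 0.997 per Mb. The windows were drawn around genes of an epithelium and were not matched to other gene windows, so the higher density is a description and was not tested.

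**Figure D1:**
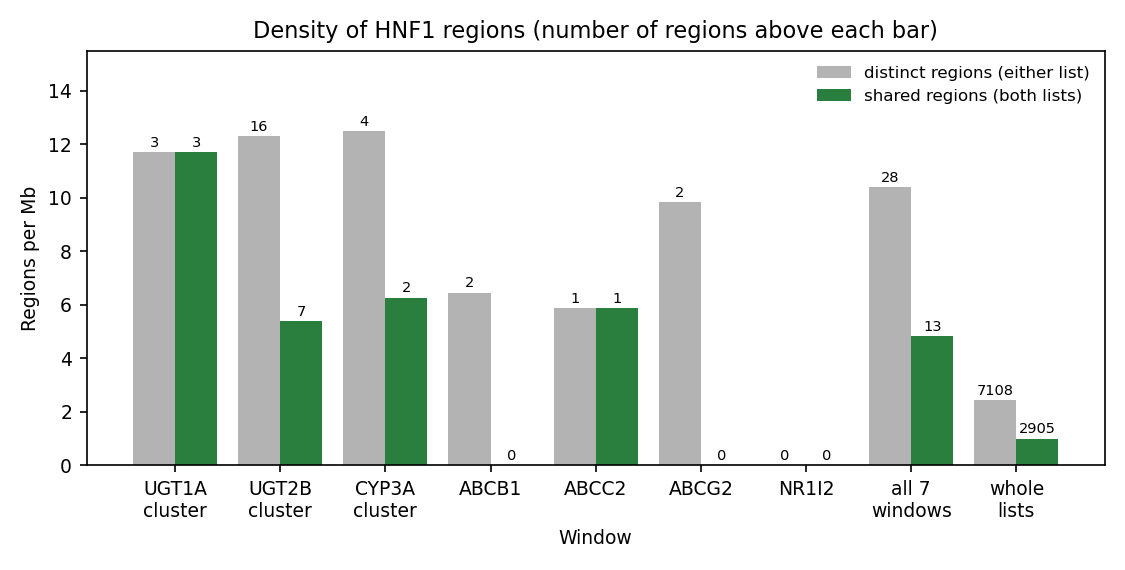
Distinct regions (grey bars, in either list) and shared regions (green bars, in both lists) per Mb of each window, for all 7 windows and for the whole lists over the chromosome spans, with the number of regions above each bar. UGT1A had 11.7 shared regions per Mb, UGT2B 5.38, CYP3A 6.27 and ABCC2 5.88, against 0.997 in the whole lists, and ABCB1, ABCG2 and NR1I2 had 0.

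In replicate 1, 13 of the 21 member peaks had a partner, or 61.9% (Wilson 95% interval 40.9% to 79.2%), against 57.5% of the whole list. In replicate 2 it was 13 of 20, or 65.0% (43.3% to 81.9%), against 58.6%. Of the distinct regions 46.4% were shared (29.5% to 64.2%), against 40.9% of all regions. The observed shares were near those of the whole lists. The intervals cover counting error only, treat peaks as independent and include the shares of the whole lists. They are wide, so a share well away from that background is not excluded. The score of a peak is its tag number scaled by the authors' run to 10000000 tags. Member peaks had a median score of 13 in replicate 1 (range 8 to 34) and 13 in replicate 2 (7 to 54), against 12 and 11 over the whole lists. At or above the list's median were 14 of 21 member peaks (66.7%) in replicate 1 and 12 of 20 (60%) in replicate 2, against 52.5% and 54.5% of all peaks.

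**Figure D2:**
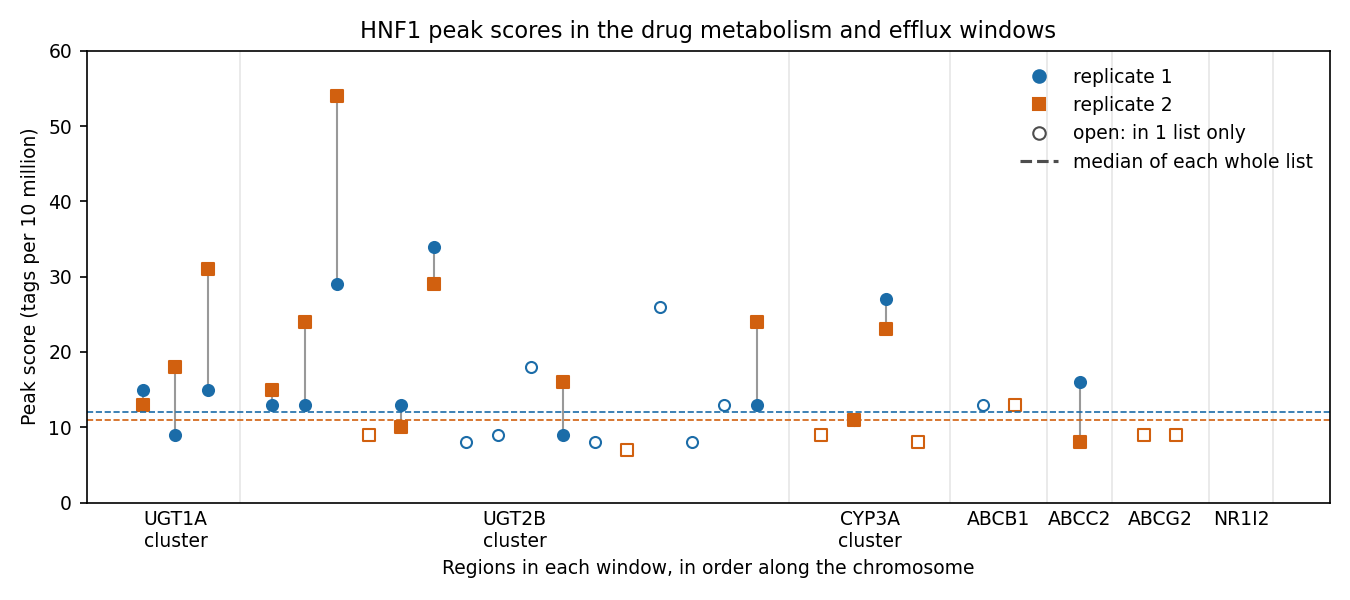
Peak score (tags per 10000000) of each of the 28 regions, grouped by window and ordered along the chromosome, for replicate 1 (circles) and replicate 2 (squares), with grey lines joining shared regions, open symbols for peaks of 1 list and dashed lines at the medians of the whole lists (12 and 11). The highest scores stand in the UGT2B window, and of the peaks of 1 list only the one scored 26 in replicate 1 exceeds 18.

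The UGT1A window (chr2:234476000-234732000, hg19) held 3 regions, and all 3 were shared, the only cluster of which this was true. UGT1A1 conjugates bilirubin, the breakdown product of haem, and the active metabolite of irinotecan. The locus is built so that the UGT1A enzymes each have their own first exon and promoter and splice to common later exons. RefSeq lists the protein-coding members in the order UGT1A8, UGT1A10, UGT1A9, UGT1A7, UGT1A6, UGT1A5, UGT1A4, UGT1A3 and UGT1A1. The strongest of the 3 regions, chr2:234665401-234665655, scored 15 in replicate 1 and 31 in replicate 2. In replicate 2 it outranked 95.3% of the list, while in replicate 1 it stood above 64.4%. About 11.3 kb below it lay chr2:234654024-234654350, with scores of 9 and 18. Its replicate 1 peak was among the weaker ones of the list (25.5% scored lower) and its replicate 2 peak among the stronger (79.6% lower). The 2 peaks of this region overlapped by only 43 bp, and their midpoints were 142 bp apart. The remaining region at chr2:234608879-234609105, another 45.2 kb below, scored 15 and 13 and was above the median of both lists, with 64.4% and 56.8% of peaks lower. At the density of the whole lists, a window of 256 kb would hold 0.255 shared regions. The nearest regions outside the window were 220.0 kb below its lower edge and 159.0 kb above its upper edge, so the 3 formed a group of their own.

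The UGT2B window (chr4:69300000-70600000) held 16 regions, 7 of them shared, and the highest scores of all members. UGT2B7 conjugates morphine and many other drugs as well as steroids and bile acids, and UGT2B17 conjugates androgens. RefSeq orders the protein-coding genes here as UGT2B17, UGT2B15, UGT2B10, UGT2A3, UGT2B7, UGT2B11, UGT2B28, UGT2B4, UGT2A1 and UGT2A2, followed by the sulfotransferases SULT1B1 and SULT1E1. The region chr4:69598701-69598938 scored 29 in replicate 1 and 54 in replicate 2. Only 28 peaks of replicate 2 scored higher in the whole genome, and 499 did so in replicate 1. The next, chr4:69737547-69737773, was strong in both lists, with scores of 34 and 29 that exceeded 92.6% and 94.2% of peaks. It had a weaker shared neighbour 0.949 kb away at chr4:69736598-69736824, scored 13 and 10, whose peaks had midpoints 1 bp apart.

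A similar pair stood 2.53 kb apart towards the lower end of the UGT2B window. Its regions were chr4:69521931-69522200, with scores of 13 and 15, and chr4:69524474-69524721, with 13 and 24. Together these pairs gave 4 of the 13 shared regions another shared region within 10 kb (30.8%, Wilson 95% interval 12.7% to 57.6%), against 10.3% of all shared regions. All 4 came from this cluster, and as they are neighbouring pairs they are not independent. The remaining shared regions were chr4:69961979-69962205, scored 9 and 16, and chr4:70579360-70579608, scored 13 and 24. The last lay 1279 kb into the window of 1300 kb, towards SULT1B1 in the RefSeq order. The shared UGT2B regions had a median of 5 other shared regions within 500 kb (range 2 to 5), and the median over all 2905 shared regions was 2 (range 0 to 10).

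Between the strong pair and the upper end of the UGT2B window most regions were found in replicate 1 alone. There were 7 such peaks in this window and 2 of replicate 2 alone. The strongest, chr4:70296630-70296772, scored 26 in replicate 1, above 86.1% of the list, and had no partner. Of all replicate 1 peaks scored 20 or more, a class that reaches up to 275, 91.3% had one. So did 3 of the 4 members in that class, and this peak was the exception. The share for peaks scored near 26 was not computed. The next was chr4:69829170-69829312, with a score of 18. A pair of weaker replicate 1 peaks, scored 8 and 9, stood near it, the closer at 2.9 kb. The other 3 replicate 1 peaks scored 8 to 13. Replicate 2 alone had chr4:69730198-69730424, scored 9, and chr4:70080475-70080701, scored 7. The minimum tag numbers used in peak calling correspond to scores of 7.54 in replicate 1 and 7.04 in replicate 2. Listed peaks nevertheless reach down to 6 in each list, which makes these limits no strict floor of the scores.

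**Figure D3:**
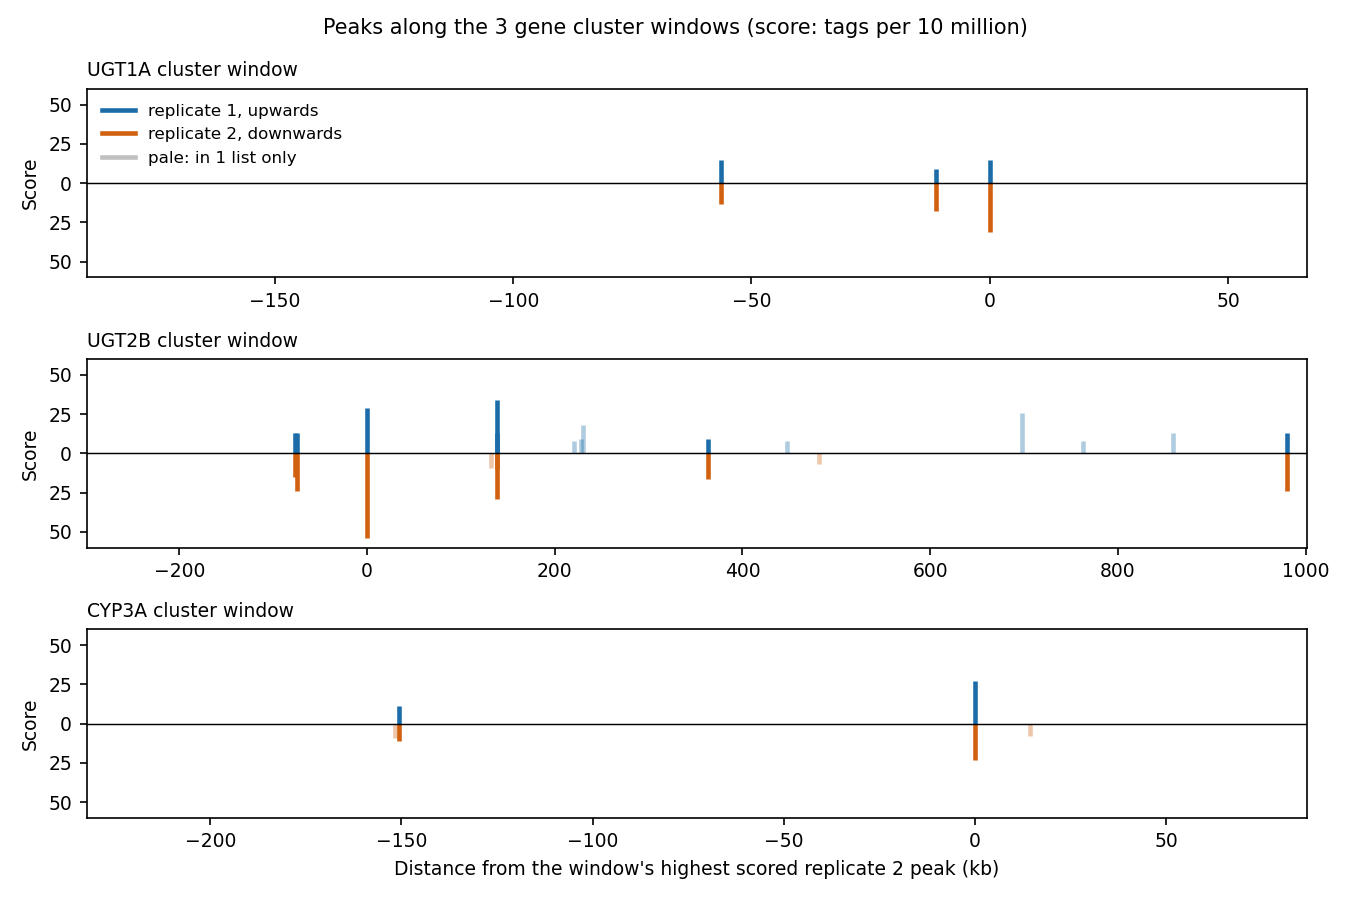
Scores (tags per 10000000) of peaks along the UGT1A, UGT2B and CYP3A windows, against the distance in kb from the highest scored replicate 2 peak of each window, with replicate 1 upwards, replicate 2 downwards and peaks of 1 list pale. All 3 UGT1A regions have bars on both sides, and in the upper part of the UGT2B window most bars are pale and point upwards.

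The CYP3A window (chr7:99195000-99514000) held 4 regions, 2 of them shared. CYP3A4 is the main drug-oxidising cytochrome P450 of adult liver and gut, CYP3A5 a close relative whose level varies widely between people, and CYP3A7 the fetal form. Their order in RefSeq is CYP3A5, CYP3A7, CYP3A4 and CYP3A43. The region chr7:99427179-99427405 scored 27 in replicate 1 and 23 in replicate 2, above 86.9% and 88.5% of the lists, so it was in the upper part of both. The other shared region, chr7:99276667-99276893, scored 11 in both replicates, which was just below the median of replicate 1 (41.1% of peaks lower) and equal to that of replicate 2 (45.5% lower). The midpoints of its peaks were 11 bp apart, and those of the stronger region 16 bp. Beside each stood a weak peak of replicate 2 alone. One was at chr7:99275407-99275633, with a score of 9, at 1.26 kb from the weaker region. One at chr7:99441540-99441766, scored 8, was 14.4 kb from the stronger. Replicate 1 had no peak of its own here.

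Genes of these clusters are near copies of each other, which matters for any count of aligned reads. In the 300 bases of their promoters, CYP3A4 and CYP3A7 had an identical run of 60 bases and CYP3A4 and CYP3A5 one of 41 bases. The latter is shown because a read lying wholly within it would match both genes. A longer read could reach differing bases, and read length was not considered here.
CYP3A4 and CYP3A5: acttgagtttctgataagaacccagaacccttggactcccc
Aligned over 250 bases before the start, CYP3A4 and CYP3A5 had 162 identical and 30 different bases, with 116 gap bases. Among the UGT1A promoters compared, the longest run was 38 bases, between UGT1A3 and UGT1A5. UGT1A4 and UGT1A5 had one of 31, as did UGT1A8 and UGT1A9. UGT1A1 shared at most 10 with any of the others. The longest run of all those compared was in the UGT2B cluster, with 64 bases between UGT2B10 and UGT2B11. There UGT2B7 shared at most 18, with UGT2B15. Not compared were UGT2B17, which had no matched promoter, and UGT1A10, UGT2B4 and UGT2B28, so longer runs with these genes would not be seen. How reads with several matches were treated is not given in the sources used here, so peaks in these clusters may be split between or missing from near-identical copies, and this was not tested.

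The windows of the 3 efflux pumps held 5 regions, 1 of them shared, and none of their peaks scored above 16. ABCC2 (MRP2) exports glucuronides, including those of bilirubin, across the apical membrane. Its window (chr10:101492000-101662000) had 1 region, chr10:101542257-101542483, which was shared. It scored 16 in replicate 1, above 66.7% of the list, and 8 in replicate 2, above 10.1%. The replicate 1 peak lay wholly within the replicate 2 peak, with midpoints 24 bp apart, so the replicates placed it at the same position but at different ranks. The nearest other region was 148 kb away.

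ABCB1 encodes P-glycoprotein, the multidrug efflux pump MDR1. Its window (chr7:87083000-87393000) had 1 peak in each list and none shared. Replicate 1 had chr7:87198731-87198873 with a score of 13, and replicate 2 had chr7:87237771-87237997, also with a score of 13. They stood 39.1 kb apart, so they were separate peaks and not 1 site placed differently, and neither recurred in the other list. Both scored above the median of their list. The nearest shared region was 619 kb from the replicate 2 peak. ABCG2 encodes the breast cancer resistance protein, an exporter of drugs, urate and sulfate conjugates. Its window (chr4:88999000-89202000) held 2 peaks of replicate 2 and none of replicate 1. They were chr4:89028568-89028794 and chr4:89111412-89111638, each with a score of 9, and 24.9% of the replicate 2 peaks scored lower. Of all replicate 2 peaks scored under 20, 51.2% had a partner, and in the 7 windows 7 of 14 did.

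NR1I2 had no peak of either list in its window (chr3:119449000-119587000). The nearest regions were 132 kb below the lower edge and 295 kb above the upper edge. At the density of the whole lists, 138 kb would hold 0.337 distinct and 0.138 shared regions, both well under 1. A peak list shows only what passed the calling limits, and weaker binding at NR1I2 would not be listed.

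The 13 shared pairs differed in height between the replicates in both directions. On the log2 scale the ratio of the replicate 1 to the replicate 2 score ran from -1.05 to 1.00 with a median of -0.21. Over all 2907 shared pairs it ran from -1.77 to 2.17 with a median of 0.17. Of the member pairs 7 scored higher in replicate 2, 5 in replicate 1 and 1 equally, whereas 36.2% of all pairs scored higher in replicate 2. The lowest ratios belonged to the upper pair of UGT1A regions, at -1.05 and -1.0, and 3.99% of all pairs were at -1 or less. The highest was that of ABCC2 at 1.00, and 10.6% of all pairs were at 1 or more. Each score rests on few tags: the ABCC2 values of 16 and 8 came from about 19 and 15 tags, with exact Poisson 95% intervals of 9.6 to 24.9 and 4.5 to 13.4 in score units. In 12 of the 13 pairs the intervals of the 2 replicates overlapped. The exception was the top UGT2B region, with 29 (20.4 to 40.8) from about 35 tags against 54 (44.1 to 65.9) from about 100 tags. Over all pairs, 9.53% had intervals that did not overlap. The tag windows differed, at 142 bp in replicate 1 against 226 bp in replicate 2, and each replicate is 1 library, so no difference in occupancy can be read from the ratios.

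**Figure D4:**
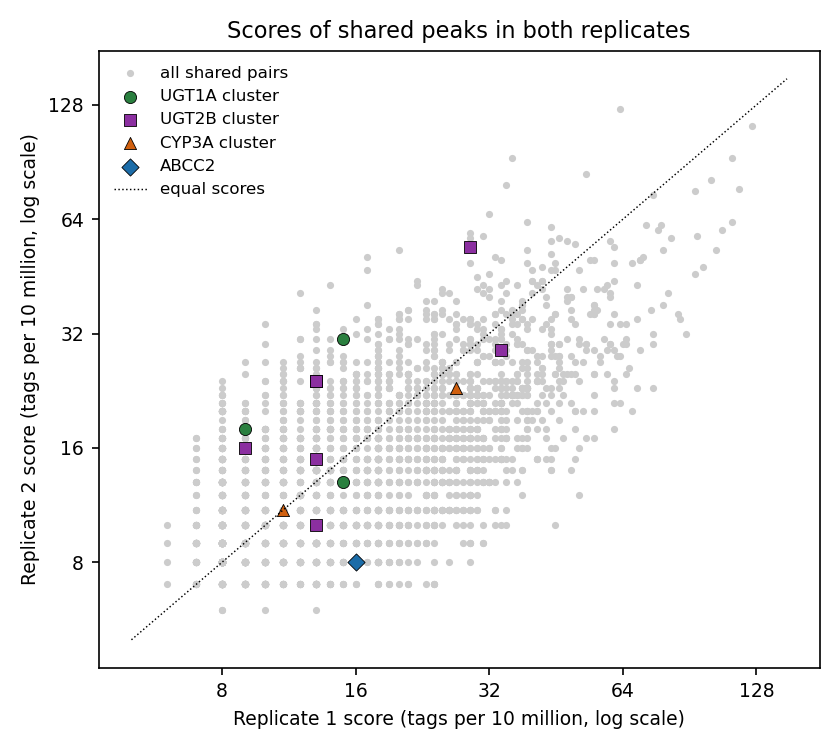
Score of each shared peak in replicate 1 (x axis) and replicate 2 (y axis), both in tags per 10000000 on log scales, for all 2907 pairs (grey) and for the 13 member pairs by window; a dotted line marks equal scores, and 2 UGT2B pairs coincide at 13 and 24. The members lie inside the cloud of all pairs, with the top UGT2B region (29 and 54) near its upper edge and ABCC2 (16 and 8) at its lower side.

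The paired peaks stood close together, with a median of 39 bp between midpoints (range 1 to 142), against 27 bp over all pairs. The fragment lengths in the peak list headers were 76 bp in replicate 1 and 226 bp in replicate 2. Whether this difference moved peak positions or changed overlaps was not tested. Among members scored 20 or more, 3 of 4 in replicate 1 and 6 of 6 in replicate 2 were shared (91.3% and 94.6% over the whole lists). Among those scored under 20 it was 10 of 17 and 7 of 14 (47.6% and 51.2%). Shared members had medians of 13 in replicate 1 and 18 in replicate 2, and peaks of 1 list only had 11 and 9.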

How the data were processed

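The authors ran HOMER findPeaks in factor style on every immunoprecipitation by itself against its input, per the file headers, at a false discovery rate of 0.001 and at least 4-fold over the input and over the surrounding 10000 bp. The submitters' processing notes name Bowtie 1.0.0, HOMER 1.2 and hg19, without roles. The score deposited with each peak is the authors' normalized tag count per 10000000 tags, rounded, and 1 tag was worth 0.838 in replicate 1 and 0.541 in replicate 2. Scores were used only to describe and rank peaks, and tag numbers were recovered approximately as the score divided by these values. Positions count from 1. The tag limits were 9 and 13.

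Peaks were assigned to windows by midpoint and called shared at an overlap of 1 bp. Shares carry Wilson 95% intervals and scores exact Poisson 95% intervals, which cover counting error only. With 1 list per library and 1 condition, no test was run. The members and lists were chosen with earlier results of these data known. Every member region was to be described, and peaks of 1 list were named in full in windows with at most 4 of them. Of the 9 peaks of 1 list in the UGT2B window, 4 are named by position, of which the 2 best ranked were set by the rule and the pair from replicate 2 was chosen after its values were seen. Overlap and window counting were tested on simulated data. Motifs were exact matches in RefSeq promoters (GRCh38.p14). Motifs in the peaks themselves and the place of peaks against genes were planned for an hg19 sequence and annotation, which were not used here. Alternatives were other sharing rules, wider windows, better scored peaks and 1 list at a time. Python 3.11.15, numpy 2.4.6, pandas 2.3.3, scipy 1.17.1 and matplotlib 3.10.9 were used.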

Additional observations from a re-analysis of the deposited data

How the results depend on the processing

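With peaks scored at or above their list's median only, 12 replicate 2 peaks (from 20), 18 distinct regions (from 28) and 8 shared regions (from 13) remained in the windows, fewer by construction, and 14 replicate 1 peaks (from 21). Windows widened by 50 kb on each side gave 2 shared regions at ABCC2 in place of 1, and 14 in all. Shared regions numbered 11 when 50% of both peaks had to overlap, 12 with midpoints within 100 bp and 13 within 500 bp. The UGT1A count was 2 in place of 3 under the first 2 of these. ABCB1, ABCG2 and NR1I2 had 0 shared regions under each setting tried for the single windows. Distinct regions in 1 list alone numbered 20 to 21. No paired analysis was possible because the replicate numbers pair each immunoprecipitation with an input, and the inputs have no values of their own in the peak lists. The motif search in peaks was not run, since no hg19 sequence was used. At 1 tag worth 0.838 or 0.541, weak peaks rest on about 10 to 17 tags, which limits the precision of their ranks.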
